A study of Rattus norvegicus with 24 samples.

Results

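MHC class I molecules display peptides from a cell's own proteins on its surface. The proteasome cuts proteins into peptides, a transporter carries them into the endoplasmic reticulum, and there they are loaded onto a class I heavy chain paired with beta-2 microglobulin, before the complex moves to the surface. In brain tissue class I molecules are made by microglia and endothelial cells, and in smaller amounts by neurons, where they have been studied for roles in synapse remodelling as well as in immune recognition. Interferons raise most genes of the route, and their response is read through short promoter elements bound by interferon regulatory factors.

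The 10 genes described here are B2m, RT1-CE12 and RT1-M3-1 (light chain and heavy chains), Tap1, Tap2 and Tapbp (peptide transport and loading), Psmb8 and Psmb9 (catalytic subunits of the immunoproteasome), and Psme1 and Psme2 (the alpha and beta subunits of an interferon-inducible proteasome activator). They were taken by symbol, from all probe sets whose platform annotation gives a single gene symbol among these names, out of 14218 genes with such a probe set. They had 13 probe sets on the array. Of these, 7 exceeded a log2 signal of 4 in at least 6 arrays and the other 6 were treated as dim, so that 6 of the 10 genes were tested, among 9076 genes in all. Tap1, Tap2, Tapbp and Psmb8 were not, and their values are given below as dim. A probe set was taken for each gene as the brightest of those that passed.

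RNA came from the microdissected CA1 field of the hippocampus, whose pyramidal neurons are needed for spatial learning, in male Long-Evans rats that received no treatment and were housed singly. On Affymetrix rat arrays 3 groups were measured: aged impaired rats (24 to 26 months, 8 arrays), aged unimpaired rats (24 to 26 months, 6 arrays) and young rats (6 months, 9 arrays). The aged rats were sorted by a learning index from the Morris water maze, in which unimpaired rats scored within the young range and impaired rats worse, so the aged groups are ends of a behavioural scale and were not separated by genotype or treatment. Signals are the authors' GCRMA values on the log2 scale, on which a difference of 1 is a doubling. The arrays are separate biological replicates by their labels, and their number limits the precision. Their median signal lay between 4.201 and 4.281 and their median correlation with one another between 0.990 and 0.994. The lowest correlations were those of aged impaired replicates 7 and 8 and young replicate 5. Markers of CA1 pyramidal cells were bright, with 6 tested genes averaging 10.83 to 11.20 in aged impaired arrays, 11.08 to 11.27 in aged unimpaired arrays and 10.72 to 11.27 in young arrays. None of them was called in any comparison at an adjusted p under 0.05. Between impaired and unimpaired rats, where no gene of all 9076 was called, 5 of the 6 differences were negative, with a median of -0.17. An unadjusted limma p under 0.05 was reached by 3 of them, against 629 of all genes. It was also reached by 1 of 6 tested CA3 and CA2 markers and 2 of 4 tested dentate granule cell markers. Whether the dissection differed between the groups was not tested. Because whole tissue was measured, fewer cells of a type and less RNA per cell cannot be told apart.

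Short promoter elements for interferon regulatory factors are shown here because the promoter windows of 6 of the 10 genes hold one. The promoter windows come from RefSeq annotation on build GRCr8, run from 250 bases before to 50 bases after the start, and were found for all 10 genes. The searched motif was GAAA, any 2 bases and GAAA, on either strand, and the stretches below are on the gene's own strand with the match in capitals. The Tap1 and Psmb8 matches lie on the opposite strand and so appear as the reverse complement of the motif. In Tapbp the capitals hold a pair of overlapping matches.
B2m: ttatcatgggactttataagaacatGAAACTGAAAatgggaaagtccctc
Tap1: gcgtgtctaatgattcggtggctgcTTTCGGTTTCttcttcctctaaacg
Tap2: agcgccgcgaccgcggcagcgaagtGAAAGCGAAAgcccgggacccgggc
Tapbp: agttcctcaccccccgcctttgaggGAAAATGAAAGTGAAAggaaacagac
Psmb8: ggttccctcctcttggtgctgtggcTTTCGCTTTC
Psme2: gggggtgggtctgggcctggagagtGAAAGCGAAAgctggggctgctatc

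These stretches lie at chr3:129549155-129549204 (plus strand) for B2m, chr20:4668640-4668689 for Tap1, chr20:4652313-4652362 for Tap2, chr20:4967878-4967928 for Tapbp, chr20:4657026-4657060 for Psmb8 and chr15:33052780-33052829 for Psme2, the last 5 on the minus strand. The Psmb8 match spans the start used for its promoter window, from base -4 to base 6. These starts can differ from the ends of the annotated gene spans. Those of Psmb8, Psme2 and Tapbp begin at bases 4657049, 33053055 and 4967958 on the minus strand. By these spans the matches of all 3 genes lie inside the gene. Over all 33469 windows of the same length, 3.92% held this motif. A gamma-activated site (TTC, any 3 bases, GAA) was found in 2 of the 10 windows (RT1-M3-1 and Psmb8) against 8.87% of all windows, and an NF-kB-type motif (GGGA, any 4 bases, CC) in 3 (B2m, Tap1 and Tapbp) against 19.3%. A match describes letters only and shows no bound factor. On GRCr8, 7 of the 10 genes lie on chromosome 20, which holds the rat MHC: RT1-CE12, RT1-M3-1, Tap1, Tap2, Tapbp, Psmb8 and Psmb9. B2m lies on chromosome 3, and Psme1 and Psme2 are close together on chromosome 15.

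In aged CA1 the class I light chain B2m and the activator subunit Psme1 were higher than in young CA1, by 1.24-fold and 1.16-fold. The heavy chain RT1-CE12 was also called, but it exceeded the chosen limit of 4 in aged arrays only, so no fold is given for it. Against young rats, these 3 of the 6 tested genes rose in the aged rats as a whole, where 3.71% of all tested genes were called and 3.09% rose. The same count, 3 of 6, rose in aged impaired rats, where 3.8% of all genes were called and 3.09% rose. Members rose in none of 6 in aged unimpaired rats, where 0.76% of all genes were called, although 4 of the 6 had an unadjusted p under 0.05, against 893 of all 9076 genes. Between impaired and unimpaired aged rats none of the 6 was called, 1 had an unadjusted p under 0.05, and 0% of all genes were called by limma, with 629 of 9076 at an unadjusted p under 0.05. Because RT1-CE12 passed the filter only through aged arrays, these counts and the medians that follow are a description.

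The median log2 difference of the 6 tested genes was 0.24 for aged minus young, against 0.01 over all genes. It was 0.23 for impaired minus young, against 0.01 over all genes, and 0.21 for unimpaired minus young, against 0.02 over all genes. For impaired minus unimpaired it was 0.08, against -0.01. The 3 comparisons with young rats share the young arrays.

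**Figure D1:**
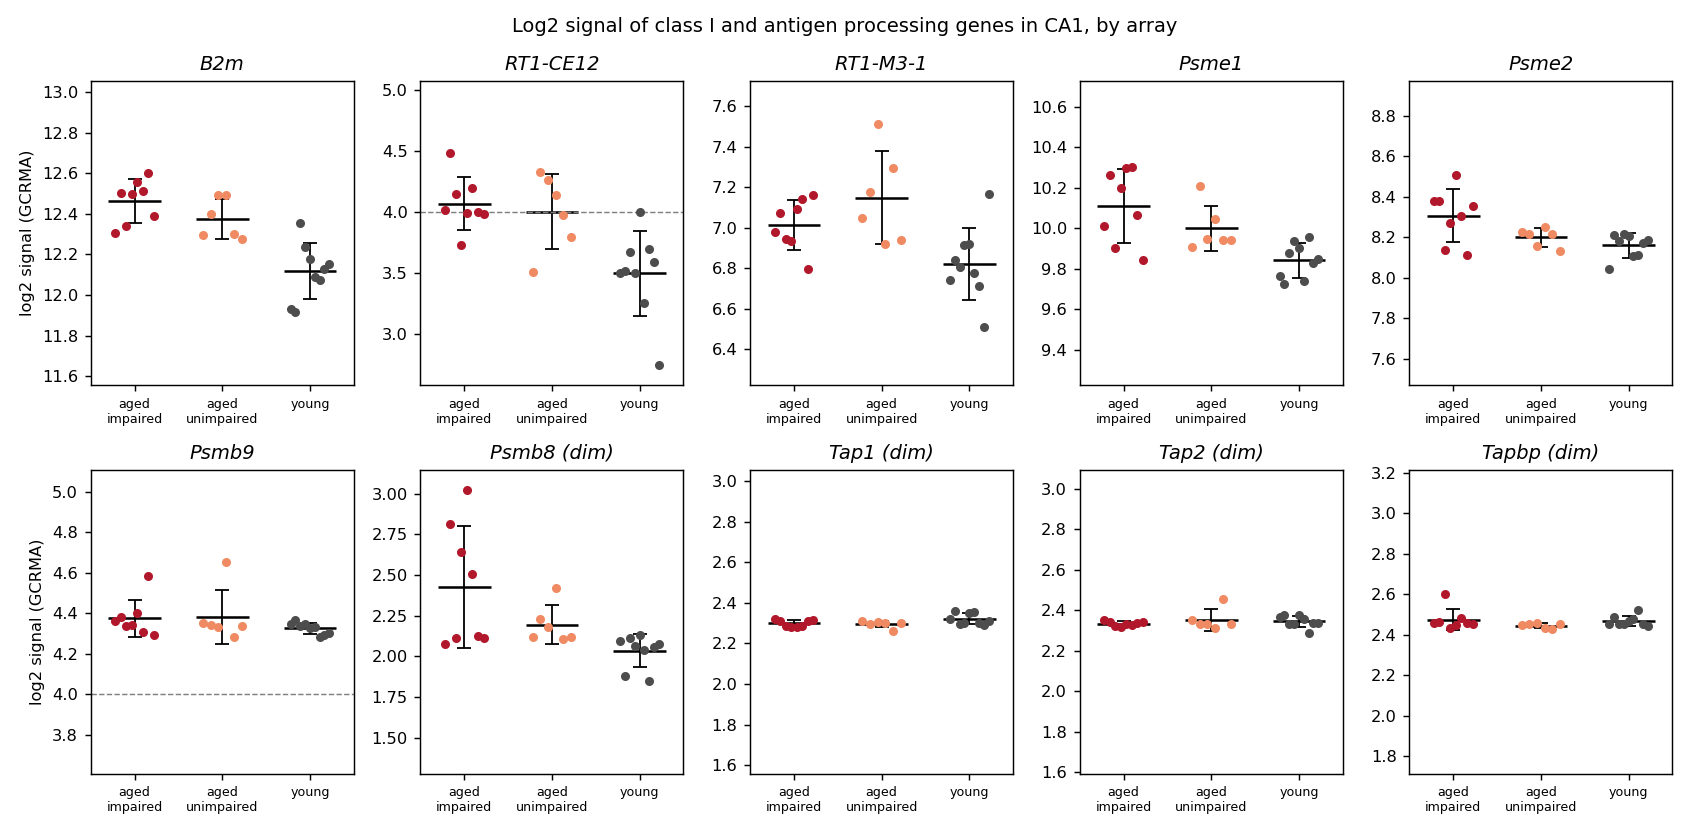
Log2 signal (vertical axis, GCRMA) of the 10 genes, 1 point per array, in aged impaired (8), aged unimpaired (6) and young (9) rats. Horizontal lines are group means, bars are the SD and the dashed line is the limit of 4. B2m shows aged points mostly above the young ones, while the dim Tap1, Tap2 and Tapbp stay between 2.26 and 2.60 in every array.

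B2m encodes beta-2 microglobulin, the light chain that every classical class I heavy chain needs to reach the surface. Its log2 signal had a lowest, median and highest value of 12.30, 12.50 and 12.60 in aged impaired arrays, 12.28, 12.35 and 12.49 in aged unimpaired arrays, and 11.92, 12.13 and 12.36 in young arrays. In words, 9 of the 14 aged arrays (6 impaired, 3 unimpaired) lay above every young array, and the lowest young arrays were replicates 1 and 2. The means were 12.46 ± 0.11 (SD, n = 8) in impaired, 12.38 ± 0.10 (n = 6) in unimpaired and 12.12 ± 0.14 (n = 9) in young rats.

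Aged rats exceeded young rats in B2m by 0.31 ± 0.05 on the log2 scale (SE, limma adjusted p = 0.000719), which ranked 45 of the 9076 genes by p. The impaired group exceeded young by 0.35 ± 0.06 (adjusted p = 0.00112). The unimpaired group exceeded young by 0.26 ± 0.06, which missed the threshold (adjusted p = 0.0522). The aged groups differed by 0.09 ± 0.06 (impaired minus unimpaired, 95% interval -0.05 to 0.22, adjusted p = 0.828), so no difference between them was detected. In each of the 23 fits that left out a single array, the aged minus young difference of B2m lay between 0.28 and 0.34 and was called. The second B2m probe set spanned 10.29 to 10.64 in impaired, 10.30 to 10.54 in unimpaired and 9.93 to 10.38 in young arrays. Its aged minus young difference was 0.32 ± 0.06 (adjusted p = 0.00187 over 12193 probe sets, of which 2.58% were called), close to that of the first.

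RT1-CE12 is a class I heavy chain gene of the RT1-CE region of the rat MHC. Its single probe set is of the type that may also bind related transcripts, and class I genes are close in sequence. It was near the chosen limit of 4, at 3.73, 4.01 and 4.48 (lowest, median, highest) in aged impaired arrays, 3.51, 4.06 and 4.33 in aged unimpaired arrays, and 2.75, 3.52 and 3.998 in young arrays. The limit of 4 was exceeded in 4 impaired, 3 unimpaired and 0 young arrays, and 8 aged arrays lay above every young one. Young replicate 9 was the lowest array.

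The values of RT1-CE12 that follow come from the fit with no filter on dim probe sets, in which its entry did not depend on the aged arrays. Aged minus young was 0.54 ± 0.12 on the log2 scale (adjusted p = 0.0215 over 14218 genes, of which 1.91% were called). Impaired minus young was 0.57 ± 0.14 (adjusted p = 0.0358, 1.82% called) and unimpaired minus young was 0.51 ± 0.15 (adjusted p = 0.223). Impaired minus unimpaired was 0.07 ± 0.16, with a 95% interval from -0.26 to 0.39. Signals in young arrays were under the limit, so their size is uncertain.

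RT1-M3-1 is a non-classical class I gene of the M3 group, whose mouse counterpart presents peptides that begin with formylmethionine. Its lowest, median and highest signals were 6.80, 7.03 and 7.16 in aged impaired arrays, 6.92, 7.11 and 7.51 in aged unimpaired arrays, and 6.51, 6.81 and 7.17 in young arrays. The highest young array, replicate 9, exceeded all impaired arrays, and 3 unimpaired arrays exceeded every young array. The groups therefore overlapped, and the difference did not pass the test. Aged minus young was 0.25 ± 0.07 (adjusted p = 0.0551), impaired minus young 0.19 ± 0.08 (adjusted p = 0.231) and unimpaired minus young 0.33 ± 0.09 (adjusted p = 0.0946). Without young replicate 9, the values became 0.29 for aged (adjusted p = 0.0183) and 0.37 for unimpaired (adjusted p = 0.0359), both past the threshold. The aged difference was also past it without aged impaired replicate 7 (adjusted p = 0.0383), aged unimpaired replicate 4 (0.0464) or aged unimpaired replicate 7 (0.0454). These are 4 of the 23 fits without a single array, and in the rest it was not a call, with adjusted p up to 0.110. The aged difference was past the threshold as well with RNA quality as a covariate (0.31, adjusted p = 0.00902), with a filter at 6 (adjusted p = 0.0493) and with a replicate block (0.29, adjusted p = 0.0370), although the numbers do not pair the rats. The remaining settings did not make it a call at 0.05, with adjusted p up to 0.1085. In the deposited table young replicate 9 stands where an aged unimpaired replicate 6 would, a number that no label carries, and it was used as labelled. That array was the highest young one for RT1-M3-1 but the lowest of all 23 arrays for RT1-CE12, at 2.75. Whether its label is right was not tested. Impaired minus unimpaired was -0.13 ± 0.09, with a 95% interval from -0.32 to 0.06, and -0.06 without aged unimpaired replicate 3.

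**Figure D2:**
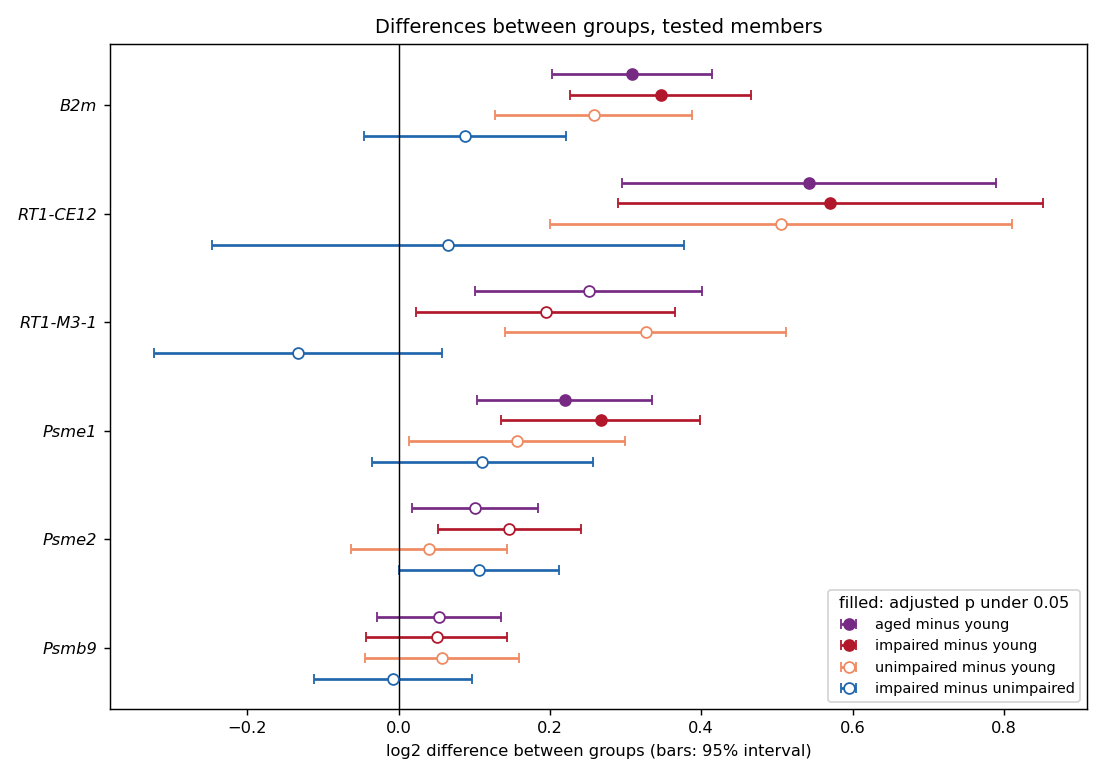
Log2 differences between groups (horizontal axis) for the 6 tested genes, with 95% intervals. Filled points are past an adjusted p of 0.05. All 6 points of aged minus young lie right of 0, from 0.05 for Psmb9 to 0.54 for RT1-CE12, which passed the filter only through aged arrays. Every interval of impaired minus unimpaired includes 0 except that of Psme2.

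Psme1 encodes the alpha subunit of the proteasome activator that opens the proteasome to peptides. Its signals were 9.84, 10.13 and 10.30 in aged impaired arrays, 9.91, 9.94 and 10.21 in aged unimpaired arrays, and 9.73, 9.85 and 9.96 in young arrays (lowest, median, highest). Of the aged arrays, 6 impaired and 2 unimpaired lay above every young one, and the impaired arrays were the most spread, with an SD of 0.18 against 0.09 in young. The aged minus young difference was 0.22 ± 0.06 (adjusted p = 0.0269) and impaired minus young was 0.27 ± 0.06 (adjusted p = 0.0173).

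Unimpaired minus young was 0.16 ± 0.07 for Psme1 (adjusted p = 0.432) and impaired minus unimpaired 0.11 ± 0.07 (95% interval -0.04 to 0.26). The aged call was lost without young replicate 2 (adjusted p = 0.0620), without young replicate 6 (0.0565) and with RNA quality as a covariate (0.0575). The impaired call was kept in all 23 fits without a single array, with adjusted p up to 0.0450. The second probe set of Psme1 was dim in every array, at 1.51 to 1.61.

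Psme2 encodes the beta subunit of the same activator, and its gene neighbours Psme1. Its signals were 8.11, 8.33 and 8.51 in aged impaired arrays, 8.13, 8.22 and 8.25 in aged unimpaired arrays, and 8.04, 8.18 and 8.22 in young arrays. Of the aged arrays, 6 impaired and 3 unimpaired stood above every young one, and the ranges of both aged groups overlapped that of the young. Aged minus young was 0.10 ± 0.04 (adjusted p = 0.210) and impaired minus young was 0.15 ± 0.05 (adjusted p = 0.0804), neither of them a call. Unimpaired minus young was 0.04 ± 0.05 (adjusted p = 0.886). The 95% interval of impaired minus unimpaired, 0.11 ± 0.05, ran from 0.001 to 0.21, with an unadjusted p of 0.0480 and an adjusted p of 0.714. Without aged impaired replicate 3 or 7 the impaired minus young difference passed the threshold (adjusted p = 0.0384 and 0.0244). In the rest of the 23 fits without a single array it did not, with adjusted p up to 0.1695.

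Psmb9 and Psmb8 are catalytic subunits that replace their constitutive counterparts in the immunoproteasome. Psmb9 was at 4.29, 4.35 and 4.58 in aged impaired arrays, 4.28, 4.34 and 4.65 in aged unimpaired arrays and 4.28, 4.33 and 4.37 in young arrays, just over the limit throughout. The groups overlapped except for 3 impaired arrays and 1 unimpaired array above all young ones. Aged minus young was 0.05 ± 0.04 (adjusted p = 0.599), and the impaired minus unimpaired difference of -0.01 ± 0.05 changed sign when arrays were centred on their median.

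Psmb8 did not exceed the limit in any array. Its dim signal was 2.07, 2.32 and 3.02 in aged impaired arrays, 2.10, 2.15 and 2.42 in aged unimpaired arrays and 1.85, 2.06 and 2.13 in young arrays. Aged impaired replicates 2, 4, 5 and 6 stood above the other arrays, at 2.51 to 3.02, and the same 4 arrays had the highest Psme1 signals among impaired arrays, at 10.20 to 10.30. The other 4 impaired arrays lay between 2.07 and 2.13 in Psmb8. In the fit with no filter, Psmb8 did not pass the threshold: aged minus young was 0.29 ± 0.10 (adjusted p = 0.154) and impaired minus young 0.39 ± 0.11 (adjusted p = 0.0763, where 1.82% of 14218 genes were called).

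Tap1 and Tap2 form the peptide transporter, and Tapbp encodes tapasin, which holds the heavy chain beside it. None exceeded the limit in any array. Their brightest probe sets spanned 2.28 to 2.32 (Tap1), 2.32 to 2.35 (Tap2) and 2.43 to 2.60 (Tapbp) in aged impaired arrays, 2.26 to 2.31, 2.31 to 2.46 and 2.43 to 2.46 in aged unimpaired arrays, and 2.29 to 2.36, 2.29 to 2.38 and 2.45 to 2.52 in young arrays. The second Tap1 probe set lay between 2.17 and 2.24. At these signals no difference in the transporter was detectable, and none of the 3 passed in the fit with no filter. The adjusted p for aged minus young was 0.223 for Tap1, 0.922 for Tap2 and 0.820 for Tapbp.

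The genes were also set against one another across the 23 arrays after the mean of each group was subtracted, in all 45 pairs. No pair passed the adjustment over pairs. The pairs of smallest p were B2m with Psme1 (r = 0.546, rho = 0.624, permutation p = 0.00581 and 0.00242, adjusted 0.135 and 0.0731) and Psmb8 with Psme1 (r = 0.698, rho = 0.690, permutation p = 0.00601 and 0.00325, adjusted 0.135 and 0.0731). Without the 2 arrays farthest from the median of the first gene, r was 0.559 and 0.658. Among the 15 pairs of tested genes, r ran from -0.435 to 0.546 with a median of 0.144, and 12 were above 0. Psme1 with Psme2, which encode partners in 1 complex, had r = 0.382 and rho = 0.228 (adjusted p = 0.491 and 0.551).

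**Figure D3:**
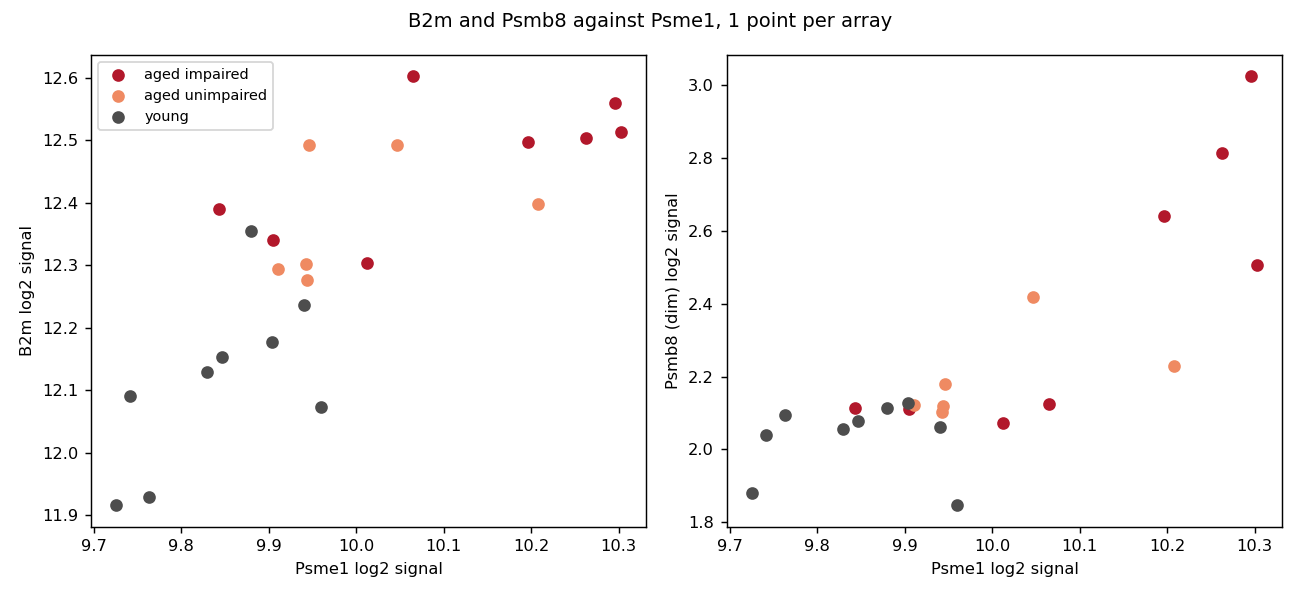
Log2 signal of B2m (left, vertical axis) and of the dim Psmb8 (right, vertical axis) against that of Psme1 (horizontal axes), 1 point per array, coloured by group. In the right panel 4 aged impaired arrays stand apart at Psmb8 signals of 2.51 to 3.02 and Psme1 signals of 10.20 to 10.30.

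By Pearson correlation of gene-level log2 signals over all 23 arrays, which includes the differences between groups, the genes most like B2m were Rps6 (r = 0.918), Aif1 (0.917) and Cd63 (0.903). Within the 14 aged arrays these values were 0.835, 0.751 and 0.751. The genes most like Psme1 were Slc50a1 (0.879), Naprt (0.859) and Tmbim1 (0.833), at 0.833, 0.812 and 0.851 within the aged arrays. Those most like RT1-CE12, which passed the filter only through aged arrays, were Hs1bp3 (0.798), Srebf1 (0.796) and A2m (0.791). Within the aged arrays these were 0.754, 0.642 and 0.72. All values come from the same arrays and share their normalization.

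The other genes of the route were listed in 5 groups with 128 names, of which 85 had a probe set with a single symbol and 57 were tested. In aged minus young, 1 of the 57 rose and 1 fell, where 3.09% of all tested genes rose and 0.628% fell. The median difference of the 57 was 0.01. In impaired minus young 1 rose and 3 fell, where 3.09% of all tested genes rose and 0.716% fell, and in unimpaired minus young and impaired minus unimpaired none was called. At an unadjusted p under 0.05 there were 5 and 2 of the 57, against 893 and 629 of all 9076 genes.

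**Figure D4:**
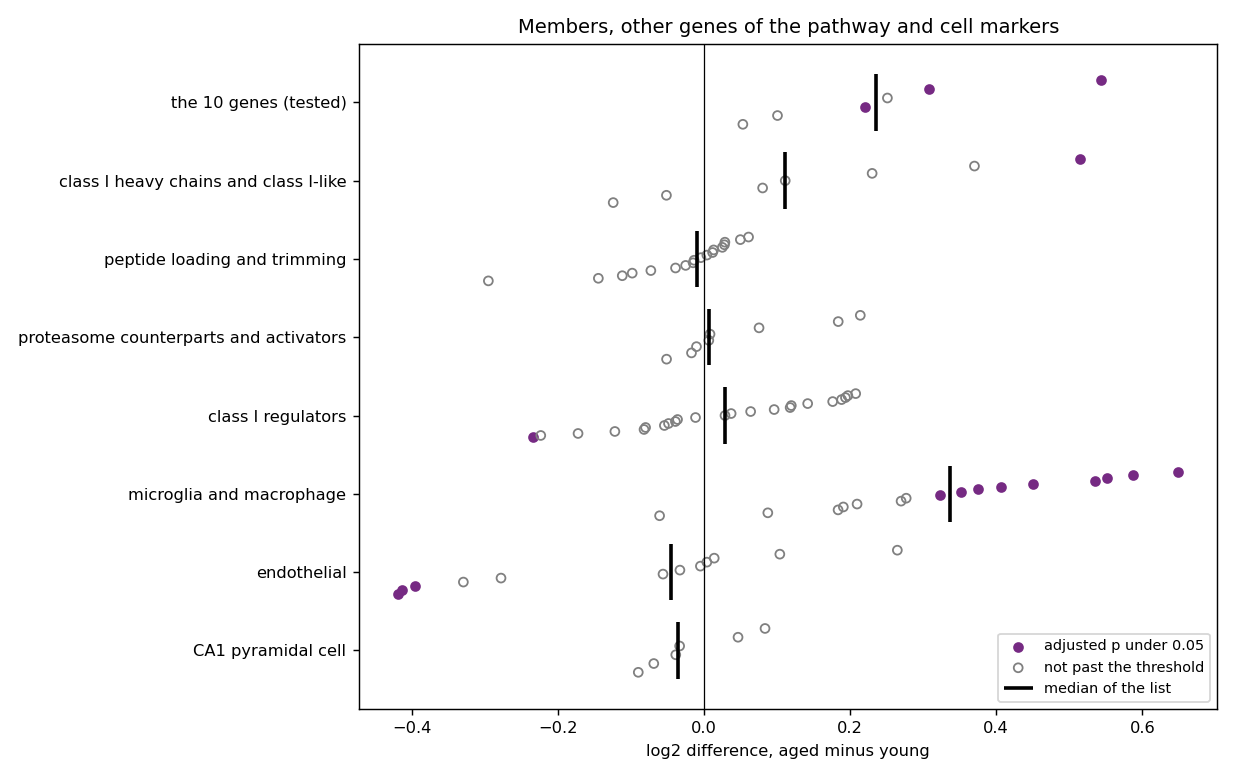
Log2 difference of aged minus young (horizontal axis) for each tested gene of the 10 genes, of the other lists of the class I route and of 3 marker lists. Filled points are past an adjusted p of 0.05 and vertical bars are list medians. The median was 0.24 for the 6 tested members, -0.01 for peptide loading and 0.34 for microglia and macrophage markers. The 6 members include RT1-CE12, which passed the filter only through aged arrays.

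Among class I heavy chains and class I-like genes, 7 of 46 were tested. In aged and in impaired minus young 1 of the 7 was called, where 3.71% and 3.8% of all tested genes were called. That gene was Fcgrt, the heavy chain of the neonatal Fc receptor, which pairs with the B2m product and binds IgG and albumin. Its signals were 6.60, 7.18 and 7.70 in aged impaired arrays, 7.02, 7.15 and 7.52 in aged unimpaired arrays and 5.99, 6.76 and 7.001 in young arrays. All 6 unimpaired arrays, but not all impaired ones, lay above every young array. Aged minus young was 0.51 ± 0.12 (adjusted p = 0.0174) and impaired minus young 0.51 ± 0.14 (adjusted p = 0.0423). The impaired call was lost in 14 of the 23 fits without a single array, with adjusted p up to 0.0991. The 6 other tested genes of this list had aged minus young differences from -0.12 to 0.37. Among them RT1-N2 varied most between arrays, from 5.97 to 8.08 in aged impaired, 3.38 to 7.30 in aged unimpaired and 3.89 to 7.85 in young arrays. The cause of this spread was not tested.

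A further probe set is annotated to 2 class I heavy chain symbols and so belongs to no single gene. It was bright in all 23 arrays, at 9.13, 9.72 and 9.91 in aged impaired arrays, 9.01, 9.39 and 9.87 in aged unimpaired arrays and 8.05, 8.57 and 9.39 in young arrays. Most aged arrays lay above most young arrays, with overlap. In a fit over every probe set over the limit, chosen after seeing the data, aged minus young was 0.82 ± 0.15 (adjusted p = 0.00241, 2.31% of 16201 probe sets called) and impaired minus young 0.90 ± 0.17 (adjusted p = 0.00377). Unimpaired minus young was 0.71 ± 0.18 (adjusted p = 0.0838, 0.494% called). Another probe set, with 5 class I symbols, gave 0.18 ± 0.08 for aged minus young (adjusted p = 0.2997). A probe set with 3 class I symbols and a further probe set with 2 did not exceed the limit in any array. Their means were 2.53 and 2.31 in aged arrays, against 2.56 and 2.33 in young arrays. The latter shares a symbol with the bright probe set.

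In the peptide loading and trimming list 18 of 20 genes were tested, and none was called in aged minus young. Calr, Canx and Pdia3, the chaperones and the oxidoreductase that fold class I heavy chains, had aged minus young differences of -0.10 (adjusted p = 0.274), 0.01 and -0.01. Erap1, which trims peptides in the endoplasmic reticulum, had -0.01. The signs of Canx, Pdia3 and Erap1 changed under other settings. In impaired minus young 2 of the 18 fell, both endoplasmic reticulum genes, where 0.716% of all tested genes fell. Pdia4, an oxidoreductase, fell by 0.37 ± 0.10 against young (adjusted p = 0.0447), with 7.64 to 8.28 in impaired, 8.08 to 8.28 in unimpaired and 7.87 to 8.71 in young arrays. With RNA quality as a covariate Pdia4 was also called in aged minus young (-0.38, adjusted p = 0.00613), against -0.30 without it (adjusted p = 0.0726). Hspa5, the chaperone BiP, fell by 0.24 ± 0.07 (adjusted p = 0.0484), with 11.69 to 12.10 in impaired, 12.00 to 12.20 in unimpaired and 11.84 to 12.33 in young arrays. Impaired arrays overlapped the young ones for both genes. Both calls were near the threshold, and leaving out a single array ended them in 17 and 18 of the 23 fits, with adjusted p up to 0.0976 for Pdia4 and 0.108 for Hspa5.

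Of the constitutive proteasome subunits that the immunoproteasome ones replace, Psmb5 and Psmb7 had aged minus young differences of -0.05 ± 0.04 and -0.01 ± 0.04, the second of which changed sign under other settings. Psmb10, the remaining immunoproteasome subunit, spanned 6.38 to 7.52 in aged impaired arrays, 6.55 to 6.76 in aged unimpaired arrays and 6.29 to 6.64 in young arrays. Its difference was 0.18 ± 0.09 (adjusted p = 0.342), which did not pass. Without aged impaired replicate 5, the highest array, it was 0.12 (adjusted p = 0.190), and impaired minus young was 0.07, against 0.20 with all arrays. None of the 8 tested genes of the proteasome list was called in any comparison. Psmb6 and Tapbpl had no probe set with a single symbol.

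Among the class I regulators 23 of 35 genes were tested. In aged and in impaired minus young 1 of the 23, Rfxap, was called, where 3.71% and 3.8% of all tested genes were called. Rfxap encodes a subunit of the RFX complex, which binds the promoters of MHC genes. Its signals were 7.65, 7.95 and 8.11 in aged impaired arrays, 8.21, 8.31 and 8.42 in aged unimpaired arrays and 8.11, 8.27 and 8.65 in young arrays. The impaired arrays did not overlap the unimpaired ones, and their highest array was level with the lowest young one. Impaired minus young was -0.39 ± 0.07 (adjusted p = 0.00226), a call in all 23 fits without a single array. Aged minus young was -0.23 ± 0.06 (adjusted p = 0.0373), a call lost in 12 of those fits, with adjusted p up to 0.0809. Impaired minus unimpaired was -0.37 ± 0.08 with an unadjusted p of 0.000106, the second smallest of all genes, but an adjusted p of 0.256 that did not pass. The activators Nlrc5 and Irf1 were dim, at 2.81 to 3.01 and 3.45 to 3.71 over all arrays.

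**Figure D5:**
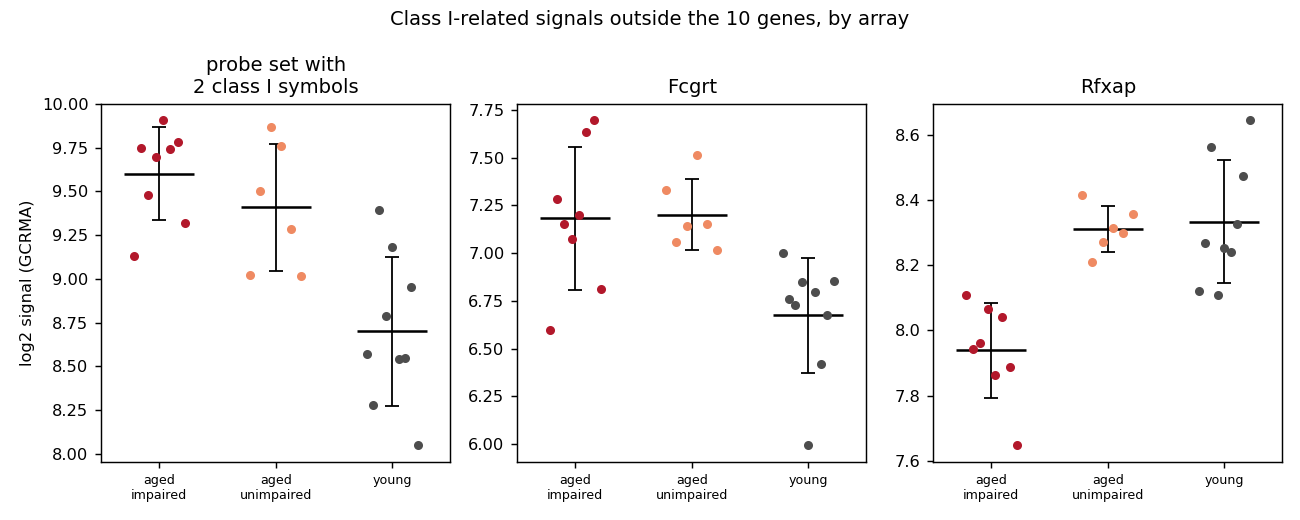
Log2 signal (vertical axis) of the bright probe set with 2 class I symbols, of Fcgrt and of Rfxap. Each point is an array, in aged impaired, aged unimpaired and young rats. Lines are group means and bars the SD. The impaired arrays of Rfxap lie between 7.65 and 8.11, below all unimpaired arrays.

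Markers of other cell types were also compared between the groups. Of 24 microglia and macrophage markers 16 were tested, and 9 rose in aged minus young and 9 in impaired minus young, with 4 in unimpaired minus young. Of all tested genes 3.09% rose in aged, 3.09% in impaired and 0.617% in unimpaired minus young. Their mean level spanned 8.04 to 8.39 in aged impaired arrays, 8.00 to 8.32 in aged unimpaired arrays and 7.54 to 8.02 in young arrays. Fcer1g, an Fc receptor subunit, rose by 0.59 ± 0.08, C1qa, a complement subunit, by 0.55 ± 0.08, Ctss, a lysosomal protease, by 0.32 ± 0.05 and Cd53, a leukocyte tetraspanin, by 0.65 ± 0.12 in aged minus young. The microglial markers P2ry12 and Tmem119 had differences of 0.18 ± 0.10 (adjusted p = 0.429) and -0.06 ± 0.11 (adjusted p = 0.872), which did not pass. Itgam, which encodes an integrin of these cells, was dim in all arrays. Aif1, one of the genes most like B2m, is also in this list.

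Of 12 tested endothelial markers 3 fell in aged minus young, namely Slco1c1, Sox17 and Sox18, where 0.628% of all tested genes fell. None was called as a rise, 4 of the 12 differences were above 0 and 8 below, and their median was -0.04. The list averaged 7.79 to 8.25 in impaired, 7.71 to 8.02 in unimpaired and 7.85 to 8.24 in young arrays. Of 3 tested markers of meninges and fibroblasts 2 fell, Igf2 by 0.84 ± 0.16 and Dcn by 0.71 ± 0.15, and the 3 averaged 6.31 to 6.62, 5.88 to 6.69 and 6.32 to 8.25 in the same groups. Of 17 T and NK cell markers 2 were tested, Cd2 and Cd3e, and neither was called. The defining markers Cd8a, Cd8b, Cd3d and Cd3g were dim in all arrays, at 2.02 to 2.62. No B cell and no perivascular macrophage marker was tested, and Mrc1 and Cd163 were dim throughout. What these markers contribute to the differences in class I genes was not tested.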

How the data were processed

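The deposited values are log2 signals, which the authors computed by GCRMA according to the submitters' processing notes, for 31099 probe sets in 24 sample columns. The version and settings are not given in the sources used here. The blank column of 1 aged unimpaired array, left out by the submitters after quality control, was not used, which left 23 arrays. Of the probe sets 20832 carry 1 gene symbol, 436 several and 9831 none, by the platform's annotation.

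With limma 3.58.1 in R 4.3.3, the means of the 3 groups were modelled for all 9076 genes together, with Benjamini-Hochberg adjustment within each of 4 comparisons. The aged mean weights the groups by their arrays. The steps were tested on simulated data. Pairs used 2-sided permutations within groups (100000 resamples). Figures used matplotlib 3.10.9. The members, lists and alternatives were chosen with earlier results of these data known. Named were all members, a panel of 12 route genes, up to 4 called genes per list and comparison, up to 4 markers per list by smallest p, and the 3 genes most like each member called. Other filters, scalings, probe-set choices, weights, thresholds, covariates and blocks were tried, as was omitting each array. No processing batch was given, so none was modelled.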

Additional observations from a re-analysis of the deposited data

Results flagged for a closer look

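The bright probe set with 2 class I heavy chain symbols, which the fits by gene do not use, was higher in aged than in young rats by 0.82. It was higher in aged impaired than in young rats by 0.90, both on the log2 scale. Single arrays stood apart from the rest of their group in 9 of 54 groups examined. The measure was the gap to the nearest array against the group's range. The rule flags about 1 in 20 groups of independent, normally distributed values. The groups here share arrays and some are of dim probe sets, so no excess can be read from the count. Aged impaired replicate 5 had the highest Psmb10 signal, 7.52, with the next at 6.66. Psmb9 was highest in aged impaired replicate 7, at 4.58, and in aged unimpaired replicate 4, at 4.65. The other such arrays concern dim probe sets. Tapbp was highest in aged impaired replicate 3, at 2.60. In aged unimpaired replicate 5, Tap2 was highest at 2.46, the Tap1 probe sets were lowest at 2.26 and 2.17, and the dim Psme1 probe set was lowest at 1.51. Tap2 was lowest in young replicate 7, at 2.29.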

How the results depend on the processing

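Fits without a single array gave 2 to 4 called members in aged minus young, 3 to 4 in impaired minus young and 0 to 1 in unimpaired minus young. The member counts for aged and for impaired minus young include RT1-CE12, which passed the filter only through aged arrays, so they are a description. For the other route genes the fits gave 1 to 3 calls in aged and 1 to 4 in impaired minus young. Between impaired and unimpaired rats no member and no other route gene was called in any of the fits. In unimpaired minus young, 1 member was called with a filter at 6, with the mean of a gene's probe sets, with array weights, with trend and robust moderation or with RNA quality as a covariate, and 2 at an adjusted p under 0.1. B2m was the member called in the first 4 of these, and RT1-M3-1 with the covariate. In aged minus young, 1 other route gene was called with no filter, without the 3 arrays of lowest correlation or over every probe set, both of these chosen after seeing the data, 4 with centred arrays and 4 after quantile normalization. In impaired minus young, 1 was called with no filter or with only the groups compared, and 2 with all probe sets of 1 symbol or over every probe set. With no filter, 1.91% of all genes were called in aged and 1.82% in impaired minus young. Over every probe set the share called was 2.31% in both. For the other settings of this paragraph no share of all genes is given, so these counts are a description.

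Replicate numbers do not pair the rats: of 20 same-numbered pairs 1 correlated over 0.1 (range -0.267 to 0.116), and 1 of 22 arrays correlated best with its own number. With a replicate block, 0 other route genes were called in aged and 1 in impaired minus young, and Psme1 had 0.21 (adjusted p = 0.0916) and 0.27 (adjusted p = 0.0555), no longer calls. RT1-M3-1 became a call in aged minus young (0.29, adjusted p = 0.0370). Calls over all genes fell to 159 in aged, 165 in impaired and 31 in unimpaired minus young, and 1 was made in impaired minus unimpaired.

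Small differences changed sign, none of them a call. In aged minus young, Canx was -0.0116 with centred arrays, Erap1 0.0343 with averaged probe sets, Pdia3 0.0123 with the block and Psmb7 0.00496 without the 3 arrays. In impaired minus young, Erap1 was 0.00929 with averaged probe sets, Pdia3 -0.00699 with centred arrays, and Psmb7 0.00162 with array weights and 0.0221 without the 3 arrays. Psmb9 in impaired minus unimpaired was 0.00671 with centred arrays, 0.0161 with the covariate and 0.00798 with the block, and Rfxap in unimpaired minus young was 0.0123 with the block. Without a single array the ranges in aged minus young were -0.0303 to 0.00647 (Erap1), -0.0481 to 0.0161 (Pdia3) and -0.0233 to 0.00237 (Psmb7). They were -0.0229 to 0.0413 (Pdia3) and -0.0351 to 0.0104 (Psmb7) in impaired minus young, -0.0371 to 0.0462 (Psmb9) and -0.0339 to 0.13 (RT1-CE12) in impaired minus unimpaired, and -0.0497 to 0.0177 (Rfxap) in unimpaired minus young. The cause was not tested. Signals under the limit in Tap1, Tap2, Tapbp and Psmb8 limit what can be said of them.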
